A study of Danio rerio with 9 samples.

Results

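Larvae exposed to 10 µg/L perfluorononanoic acid (PFNA) were compared with DMSO control larvae, gene by gene, across the whole transcriptome. The comparison took the 3 libraries of the 10 µg/L group and the 3 DMSO libraries of the same deposited table, 6 of the 9 libraries of the series, and every gene whose normalized counts averaged 10 or more in these 6 libraries. Of 19731 genes in the table, 19610 met this minimum, and 4033 of them carried only a clone or predicted name. The labels give both groups as whole zebrafish (Danio rerio). By the study's methods the fish came from an AB × Tübingen cross and entered the beakers as fertilized embryos. They were in 0.1% DMSO, with 10 µg/L PFNA or without it, for 7 days, and were collected after that as larvae. A library was made from the pooled 14 to 15 larvae of a single beaker, so that a replicate is a beaker and differences between single larvae or tissues are averaged. Poly-A RNA was sequenced with a directional kit. In such bulk RNA, fewer cells of a type and less RNA per cell cannot be told apart.

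PFNA is a long-chain perfluoroalkyl acid, a class of persistent surfactants known to bind fatty acid binding proteins and to activate lipid-sensing nuclear receptors in mammals. At this larval stage the brain is still adding axons and synapses. Growing axons are steered by guidance cues and their receptors (semaphorins, plexins, ephrins, slits, netrins), they recognise partners through adhesion proteins such as L1-type proteins, contactins and protocadherins, and they release transmitter through synaptic vesicle proteins. Ribosomal proteins, mitochondrial respiratory subunits and the proteasome, by contrast, are housekeeping products of nearly every cell.

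The controls did not form a single cluster. Reads on genes, recovered from the normalized counts, were 14493071, 23963715 and 20878579 in DMSO replicates 1 to 3 and 19168248, 17191934 and 18637215 in 10 µg/L replicates 1 to 3. For each pair of libraries, the standard deviation (SD) over genes of the difference in log2 normalized counts was taken as a distance. DMSO replicate 3 lay at 0.530, 0.571 and 0.477 from the 3 exposed libraries, which lay at 0.464 to 0.541 from each other. From the other controls it lay further away, at 0.869 from DMSO replicate 1 and 0.744 from DMSO replicate 2, and these were 0.663 apart. The first sequencing index was the same in DMSO replicate 3 and in every exposed library and differed in DMSO replicates 1 and 2, so PFNA and this index cannot be told apart except through DMSO replicate 3. Results are therefore also given without DMSO replicate 3, and with it as the only control. In that last fit the spread between replicates comes from the exposed libraries alone, and the lone control is assumed to vary like them.

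**Figure D1:**
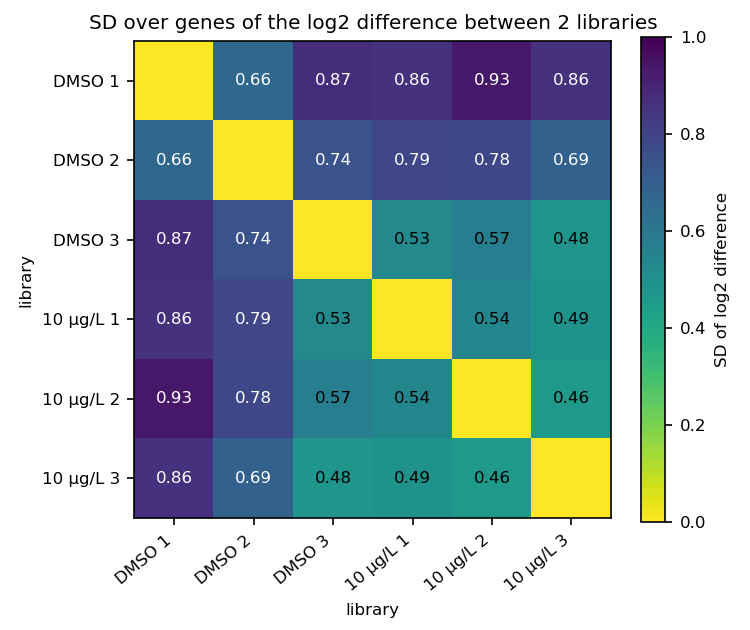
Distance between each pair of the 6 libraries, as the SD over 19610 genes of the difference in log2 (normalized count + 1). Both axes list the libraries, and darker squares are larger distances. DMSO 3 sits at 0.48 to 0.57 from the exposed libraries and at 0.74 and 0.87 from the other DMSO libraries.

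At 10 µg/L PFNA more genes were higher than lower, and the higher ones moved further. A gene was called here at an unadjusted p under 0.05 in limma, two-sided, on log2 of the normalized count plus 1. Of the genes tested, 1551 (7.91%) were called higher and 1021 (5.21%) lower than in DMSO, together 2572 (13.1%). None had a Benjamini-Hochberg adjusted p under 0.05 in limma or in edgeR (2505 genes at an unadjusted p under 0.05), and the lowest limma value was 0.174. DESeq2 on the recovered reads gave 164 genes higher (0.87%) and 65 lower (0.345%) at an adjusted p under 0.05, of 18849 genes with an adjusted p, and all 229 (1.21%) were among the limma calls. The 3 exposed libraries lay above all 3 controls for 1914 genes (9.76%) and below them for 1616 (8.24%).

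Among the called genes, 810 were at least 1 log2 unit higher but only 131 were that much lower, and 88 were at least 2 log2 units higher against 4 lower. The median size of the log2 fold change was 1.04 for genes called higher and 0.61 for genes called lower. The 2 groups of genes also differed in level. The median of the mean normalized count was 97.5 for genes called higher, 311 for genes called lower and 156 for all genes tested. When the genes were divided into 5 equal bins by this mean, the lowest bin held 288 called higher and 89 lower at a median log2 fold change of 0.14, and the highest bin held 115 called higher and 339 lower with a median of -0.05. With DMSO replicate 3 as the only control the order of the bins turned round, with medians of -0.10 in the lowest and 0.07 in the highest bin. Without that library they were 0.22 and -0.11.

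**Figure D2:**
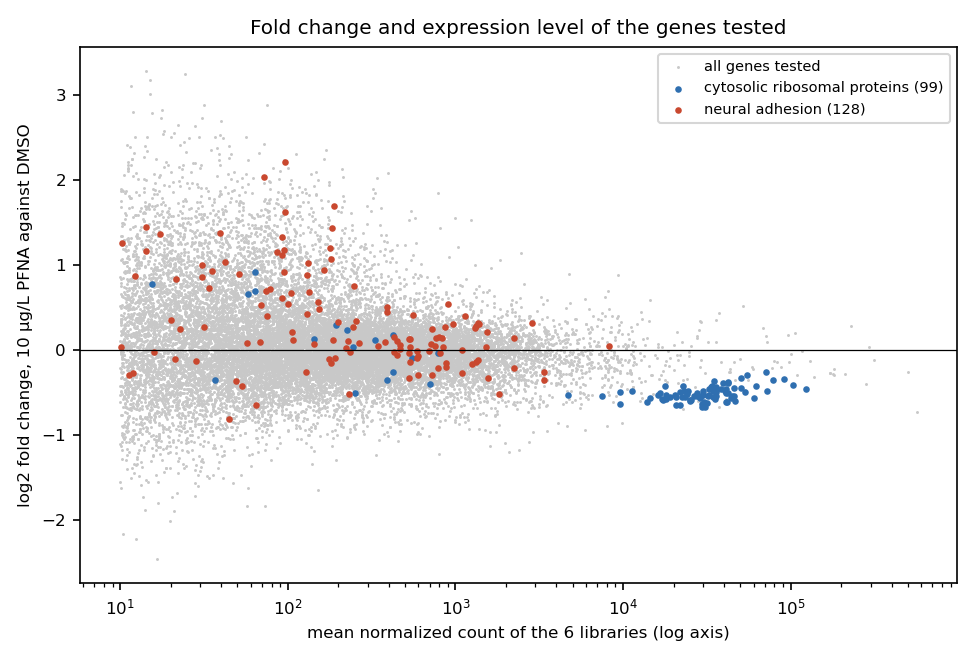
Log2 fold change of 10 µg/L PFNA against DMSO (vertical) over the mean normalized count of the 6 libraries (horizontal, log axis) for the genes tested, each point a gene. Cytosolic ribosomal protein genes (blue) lie at high counts and mostly below 0, and neural adhesion genes (red) lie at lower counts and mostly above 0.

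Genes of the neuronal cytoskeleton, axon and synapse stood among the 10 named genes with the smallest p-values on the higher side. For klc1a, a light chain of the kinesin motor that carries cargo along axons, DMSO replicates 1 to 3 had 89.8, 133 and 202 normalized counts and the exposed libraries 501, 576 and 433 (log2 fold change 1.89, SE 0.27, adjusted p = 0.224), where SE is the standard error and the adjusted p is that of limma over all genes tested. All exposed libraries were above all controls, and DMSO replicate 3 was the highest control. For cdk5r1b, an activator of the neuronal kinase Cdk5, the controls had 113, 109 and 209 and the exposed libraries 407, 552 and 397 (log2 fold change 1.70, SE 0.26, adjusted p = 0.224). For dpysl2b, a collapsin response mediator that acts in growth cones, values were 323, 332 and 375 in DMSO and 706, 709.8 and 587 at 10 µg/L (log2 fold change 0.95, SE 0.15, adjusted p = 0.224). The controls of dpysl2b stood close together. With DMSO replicate 3 as the only control its log2 fold change was 0.82, against 1.09 for cdk5r1b and 1.31 for klc1a.

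Other genes in this group of 10 belong to innate immunity and chromatin. The ubiquitin-like interferon-stimulated gene isg15 had 66.9, 65.5 and 39.1 normalized counts in DMSO and 205, 159.9 and 204 at 10 µg/L (log2 fold change 1.74, SE 0.26, adjusted p = 0.224). Here DMSO replicate 3 was the lowest of the 6 libraries, so that its log2 fold change was 2.24 against that control alone. The histone demethylase gene kdm2ba had 207, 238 and 259 in DMSO and 454, 589 and 493 in exposed larvae (log2 fold change 1.12, SE 0.17, adjusted p = 0.224). The remaining genes were l1camb (log2 fold change 2.20), trim23 (log2 fold change 1.85), xpr1a (log2 fold change 1.84) (a phosphate exporter), soul4 (log2 fold change 1.41) and syt11b (log2 fold change 1.30).

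On the lower side the genes with the smallest p-values were of more varied function. The nuclear receptor gene rorcb had 575, 551 and 519 normalized counts in DMSO and 298, 323 and 329 at 10 µg/L (log2 fold change -0.79, SE 0.15, adjusted p = 0.224). All 3 controls of rorcb, DMSO replicate 3 included, stood together. The estrogen receptor gene esr1 had 78.4, 63.2 and 42.5 in DMSO and 20.2, 19.5 and 21.5 in exposed larvae (log2 fold change -1.501, SE 0.34, adjusted p = 0.224). For cox17, a copper chaperone of cytochrome c oxidase, values were 911, 975 and 857 in the controls and 444, 612 and 606 after exposure (log2 fold change -0.73, SE 0.17, adjusted p = 0.224). The groups of both genes were separate, with DMSO replicate 3 the lowest control. The other 7 were rpgrb (log2 fold change -1.22), a ciliary gene, rsl1d1 (log2 fold change -0.86), a nucleolar gene, oaz2b (log2 fold change -0.87), an inhibitor of polyamine synthesis, neil1 (log2 fold change -0.95), a DNA repair glycosylase, timp4.3 (log2 fold change -0.70), a metalloproteinase inhibitor, nktr (log2 fold change -0.93) and ovca2 (log2 fold change -1.23).

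**Figure D3:**
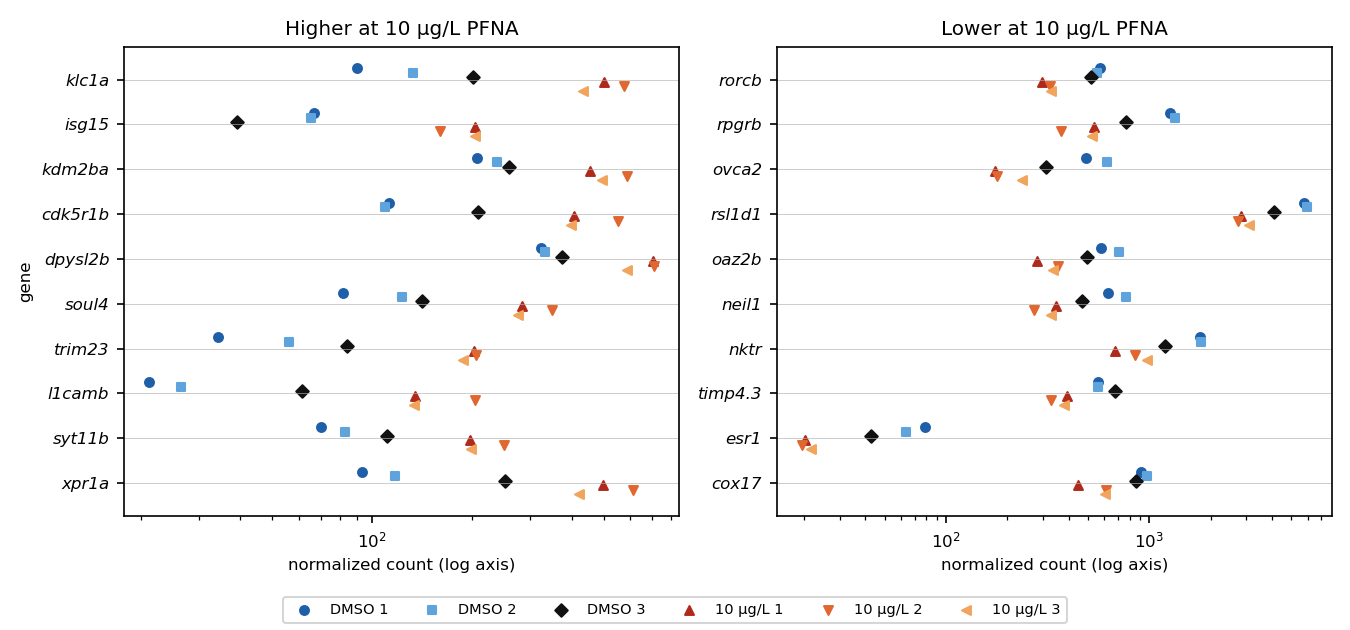
Normalized counts (horizontal, log axis) in each of the 6 libraries for the 10 named genes with the smallest p-values higher (left) and lower (right) at 10 µg/L PFNA, with 1 symbol for each library. The exposed libraries (triangles) lie apart from the DMSO libraries in every row, and DMSO 3 (black diamond) is the control nearest to them in most rows, with isg15 and timp4.3 among the exceptions.

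The largest called differences with no overlap were in genes of low count, and they were smaller against DMSO replicate 3 alone. The 5 genes with the largest log2 fold changes were ensab, tbx20, esrrgb, dclk2b and socs5a. For ensab the controls had 0, 2.34 and 22.97 normalized counts and the exposed libraries 37.4, 33.1 and 51.1 (log2 fold change 3.25, SE 0.97, adjusted p = 0.259). For tbx20, a T-box gene of the heart, the controls had 0, 1.56 and 9.36 and the exposed libraries 29.3, 30.2 and 19.7 (log2 fold change 3.18, SE 0.84, adjusted p = 0.242). For dclk2b, a doublecortin-like kinase of neurons, values were 1.63, 5.46 and 19.6 and 32.3, 80.9 and 50.2 (log2 fold change 2.88, SE 0.71, adjusted p = 0.242). With DMSO replicate 3 as the only control their log2 fold changes were 0.77, 1.38 and 1.34, and tbx20 and dclk2b were still called. DMSO replicate 1 was the lowest and DMSO replicate 3 the highest control in each of these 3, and with counts this near 0 the fitted size depends on the pseudocount. Over all genes tested, DMSO replicate 1 was the lowest library by at least 2-fold for 602 genes and DMSO replicate 2 for 326, against 27 for DMSO replicate 3 and 34 to 73 for the exposed libraries.

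The 5 lowest were cts12, vrtn, dre-mir-2184, hspb9 and snapc1a. A cathepsin gene, cts12, had 35.9, 23.4 and 25.5 normalized counts in DMSO and 2.02, 4.87 and 7.17 at 10 µg/L (log2 fold change -2.46, SE 0.56, adjusted p = 0.224). For vrtn, vertnin, the controls had 37.6, 38.2 and 21.3 and the exposed libraries 7.07, 7.80 and 6.27 (log2 fold change -2.01, SE 0.46, adjusted p = 0.224). The small heat shock protein gene hspb9 had 91.4, 146 and 93.6 and 14.1, 26.3 and 67.2 (log2 fold change -1.84, SE 0.49, adjusted p = 0.242). The controls of cts12 and hspb9 did not split by library as those of the higher genes did, and the exposed values of hspb9 spread widely.

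Function by function, gene groups of neurons and of the circadian clock led the higher side. Those of protein synthesis, respiration and protein turnover led the lower side. A group was described by how many of its tested members were called and by its median log2 fold change, beside the 7.91% called higher, the 5.21% called lower and the median of 0.01 of all genes tested. The median of all genes moved by no more than 0.03 under the other scalings tried. Without DMSO replicate 3, 2908 of the 19610 genes tested were called higher and 2361 lower. List counts from that fit stand beside these larger numbers.

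**Figure D4:**
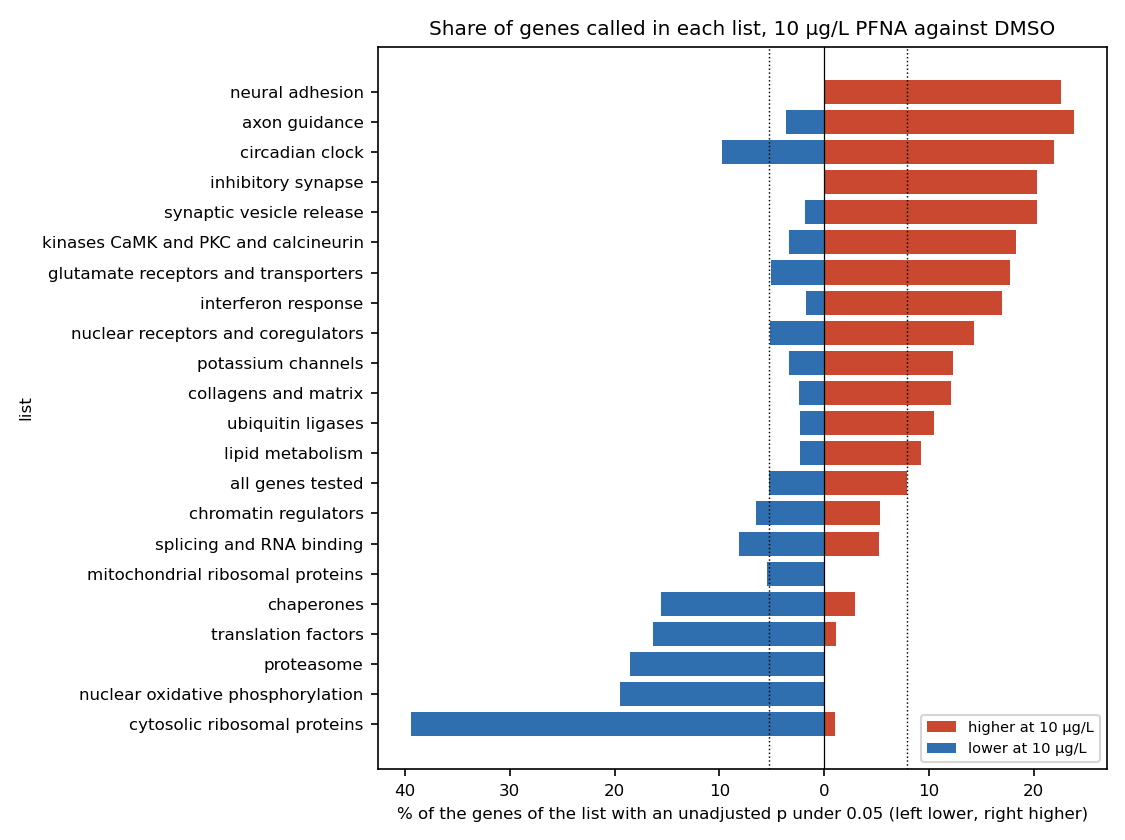
Share of the tested genes of each list with an unadjusted p under 0.05, lower at 10 µg/L PFNA to the left (blue) and higher to the right (red), in percent. Dotted lines mark the shares over all genes tested, 5.21% lower and 7.91% higher. Adhesion, axon guidance, inhibitory synapse and vesicle genes stand near the top with 20.4% to 23.9% higher, as do circadian clock genes with 22%. Cytosolic ribosomal proteins stand at the bottom with 39.4% lower.

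Of 128 genes of neural adhesion, 29 (22.7%) were called higher and 0 lower, at a median log2 fold change of 0.14. L1-type proteins and contactins bind each other along axons. For l1camb, normalized counts were 21.2, 26.5 and 61.2 in DMSO and 134, 204 and 134 at 10 µg/L (log2 fold change 2.20, SE 0.39, adjusted p = 0.224). For the contactin gene cntn1a the controls had 42.4, 66.3 and 67.2 and the exposed libraries 132, 127 and 134 (log2 fold change 1.18, SE 0.25, adjusted p = 0.224). Every exposed library of both genes was above every control. The members called higher numbered 15 without 10 µg/L replicate 2, and with DMSO replicate 3 as the only control they numbered 33 (6.57% of all genes). Without DMSO replicate 3 the list also held 18 genes called lower, beside 2361 of all 19610 genes tested.

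The protocadherins carried much of this list. Clustered protocadherins give neurons combinations of surface proteins by which a neuron tells its own branches from those of others. Of 45 tested protocadherin genes, 15 (33.3%) were called higher and 0 lower, the median log2 fold change was 0.53, and 33 were positive. For pcdh1gc5 the controls had 98.0, 101 and 140.4 normalized counts and the exposed libraries 204, 246 and 197 (log2 fold change 0.94, SE 0.21, adjusted p = 0.224). For pcdh9, outside the clusters, values were 53.9, 49.9 and 68.9 in DMSO and 98.9, 159.9 and 123.7 at 10 µg/L (log2 fold change 1.12, SE 0.26, adjusted p = 0.242). For pcdh2g5 they were 31.0, 9.36 and 56.1 and 79.8, 154 and 103 (log2 fold change 2.03, SE 0.55, adjusted p = 0.242), with DMSO replicate 2 far below the others. The groups did not overlap in any of these 3. Further called members were pcdh1g33 (log2 fold change 1.62), pcdh1g26 (log2 fold change 1.32) and pcdh2ac (log2 fold change 1.19). The family's median was 0.52 without DMSO replicate 3 and 0.26 with it as the only control. Members of a cluster are near-identical in part and share exons, so how their reads were split between them is uncertain.

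Of 109 axon guidance genes, 26 (23.9%) were called higher and 4 lower, with a median of 0.14 and 72 positive values. The semaphorin receptor gene plxna3 had 142, 163 and 229 normalized counts in DMSO and 314, 420.2 and 310.1 at 10 µg/L (log2 fold change 0.98, SE 0.22, adjusted p = 0.224). The ephrin receptor gene epha4b had 81.6, 108 and 134 and 198, 236 and 202 (log2 fold change 0.99, SE 0.23, adjusted p = 0.224). Both receptors were higher in every exposed library. Cues were called in both directions. The netrin gene ntn4 was lower, with 63.7, 94.4 and 61.2 in DMSO and 40.4, 39.0 and 45.7 at 10 µg/L (log2 fold change -0.77, SE 0.28, adjusted p = 0.311). Of 29 semaphorin genes 5 were called higher and 3 lower. The log2 fold changes of the higher ones, named after their values were seen, were 2.501 for sema3ab, 1.82 for sema3gb, 0.98 for sema3bl, 0.86 for sema4c and 0.74 for sema3h. Those of the lower ones were -0.75 for sema7a, -0.73 for sema4ba and -0.44 for sema6d. For sema7a the value of DMSO replicate 3 lay within the exposed range. Axon guidance genes called higher numbered 17 without DMSO replicate 1 and 14 without 10 µg/L replicate 2, and 12 with DMSO replicate 3 as the only control. Those called lower numbered 1 without DMSO replicate 1 or DMSO replicate 2 or 10 µg/L replicate 1 or with DMSO replicate 3 as the only control, 11 without DMSO replicate 3 and 2 without 10 µg/L replicate 2 or 10 µg/L replicate 3.

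With all 6 libraries, receptors and transporters of excitatory and inhibitory transmission and synaptic vesicle proteins were called higher more often than all genes. Their medians were small. For glutamate receptors and transporters 14 of 79 genes were called higher and 4 lower (median 0.17). For the inhibitory synapse 11 of 54 were higher and 0 lower (median 0.11). For synaptic vesicle release 22 of 108 were higher and 2 lower (median 0.12). Glutamate genes called higher numbered 9 without DMSO replicate 1, 6 without 10 µg/L replicate 2 and 9 without 10 µg/L replicate 3. Inhibitory synapse genes numbered 6 without DMSO replicate 2, 18 without DMSO replicate 3, 5 without 10 µg/L replicate 1 and 2 without 10 µg/L replicate 2, and vesicle genes 13 without 10 µg/L replicate 2. Among all 19610 genes tested, 1103, 1129 and 2908 were called higher without DMSO replicates 1, 2 and 3. Without 10 µg/L replicates 1, 2 and 3 the numbers were 1142, 800 and 1130. Without 10 µg/L replicate 2 the inhibitory share called higher was therefore near that of all genes. With DMSO replicate 3 as the only control, the medians of the 3 lists were 0.23, 0.20 and 0.19. Without DMSO replicate 3 the genes called lower in these lists numbered 7, 6 and 13, beside 2361 of all 19610 genes tested. The other libraries left out gave 1 or 2 lower glutamate genes.

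NMDA receptor subunit genes were called in both directions. The gene grin2ab had 199, 212 and 254 normalized counts in DMSO and 359, 451 and 369 in exposed larvae (log2 fold change 0.82, SE 0.18, adjusted p = 0.224). Its relative grin2da had 380.4, 357 and 204 in DMSO and 130.2, 167 and 171 after exposure (log2 fold change -0.96, SE 0.25, adjusted p = 0.242), and grin2db 775, 516 and 285 and 301, 260.3 and 286 (log2 fold change -0.78, SE 0.30, adjusted p = 0.329). For grin2db the value of DMSO replicate 3 lay within the exposed range. Vesicular glutamate transporter genes were called higher for slc17a6a, slc17a7a and slc17a7b. For slc17a6a the controls had 40.8, 34.3 and 95.3 and the exposed libraries 135, 247 and 141 (log2 fold change 1.69, SE 0.39, adjusted p = 0.233), while the log2 fold change was 1.28 for slc17a7a and 0.57 for slc17a7b. The AMPA receptor gene gria4a was lower, at -0.47.

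Among inhibitory genes, slc6a11b, a transporter that clears GABA, had 1167, 903 and 1531 normalized counts in DMSO and 2602, 2880.0 and 1960.1 at 10 µg/L (log2 fold change 1.06, SE 0.22, adjusted p = 0.224). The glycine transporter gene slc6a5 had 16.3, 21.1 and 69.8 in DMSO and 67.6, 169 and 92.3 after exposure (log2 fold change 1.78, SE 0.53, adjusted p = 0.259). Its groups overlapped through DMSO replicate 3. The GABA-B receptor gene gabbr1b, also called higher, had a log2 fold change of 1.25, or 0.20 against DMSO replicate 3 alone. Vesicle genes included rab3ab, a small GTPase of vesicle docking, with 24.5, 25.7 and 61.2 in DMSO and 147, 241 and 100.4 at 10 µg/L (log2 fold change 2.14, SE 0.42, adjusted p = 0.224). For dnm1b, a dynamin of vesicle retrieval, values were 126, 176 and 236 and 371, 487 and 359 (log2 fold change 1.20, SE 0.24, adjusted p = 0.224). The synaptotagmin family, which includes calcium sensors of vesicle fusion, had 4 of 24 genes called higher and 2 lower. Beside syt11b the higher ones, named like slc17a7b after their values were seen, were syt6a, syt16 and syt17 (log2 fold changes 1.46, 1.48 and 2.18), and the lower ones SYT2 (log2 fold change -1.36) and syt7a (log2 fold change -0.91).

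Genes of a kinase signalling list were called higher at a larger share than all genes (7.91%), and motor genes at a share nearer to it. The list took kinases with their subunits and scaffolds, calcineurin, calmodulins, adenylate cyclases and phosphodiesterases. Of its 180 genes, 33 (18.3%) were called higher and 6 lower, at a median log2 fold change of 0.07 (0.12 against DMSO replicate 3 alone). Without 10 µg/L replicate 2, 20 were called higher. Those called lower numbered 2 without DMSO replicate 2, 22 without DMSO replicate 3 and 3 without 10 µg/L replicate 1 or with DMSO replicate 3 as the only control. The scaffold gene mapk8ip2 of the JNK pathway had 27.8, 33.5 and 114 normalized counts in DMSO and 155, 332 and 159.5 after exposure (log2 fold change 2.07, SE 0.50, adjusted p = 0.242). The protein kinase C gene prkca had 34.3, 28.9 and 98.7 and 149, 247 and 122.8 (log2 fold change 1.82, SE 0.44, adjusted p = 0.242). For both, DMSO replicate 3 lay between the other controls and the exposed libraries. Of 93 motor genes 10 (10.8%) were called higher and 0 lower, with 34 negative and a median of 0.11. For kif1ab, a kinesin that carries synaptic vesicle precursors, values were 66.9, 119 and 262 in DMSO and 483, 698 and 423 at 10 µg/L (log2 fold change 2.02, SE 0.41, adjusted p = 0.224). Motor genes called higher numbered 16 without DMSO replicate 3, 5 without 10 µg/L replicate 2 and 6 without 10 µg/L replicate 3.

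Ion channels were called at shares nearer to those of all genes, 7.91% higher and 5.21% lower. Of 89 potassium channel genes 11 (12.4%) were called higher and 3 (3.37%) lower. Of 56 sodium and calcium channel genes 5 (8.93%) were called higher and 3 (5.36%) lower, near the shares of all genes. The Shaker-type gene kcna4 had 24.5, 21.8 and 23.8 normalized counts in DMSO and 46.4, 73.1 and 62.7 in exposed larvae (log2 fold change 1.32, SE 0.32, adjusted p = 0.242). It was higher in all exposed libraries, while the related kcna7 and kcna6a were lower (log2 fold changes -1.03 and -0.78). The auxiliary calcium channel subunit gene cacna2d2b had a log2 fold change of 1.10 and its paralog cacna2d2a one of -0.45. Against DMSO replicate 3 alone the first was 0.08. Potassium channel genes called higher numbered 4 with a minimum mean of 50, 25 without DMSO replicate 3 and 5 without 10 µg/L replicate 2. A minimum mean of 50 also takes members of low count out of a list, here and below, so its counts come from fewer genes. Sodium and calcium channel genes called higher numbered 2 without DMSO replicate 2, 10 without DMSO replicate 3 and 1 without 10 µg/L replicate 2. They also numbered 2 without 10 µg/L replicate 3 and 2 in edgeR. Sodium and calcium channel genes called lower numbered 1 without DMSO replicate 2 or 10 µg/L replicate 1, 7 without DMSO replicate 3 and 0 with DMSO replicate 3 as the only control.

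General markers of neurons were called higher at a share near that of all genes. Of 31 neuron markers 3 (9.68%, beside 7.91% of all genes) were called higher and 0 (beside 5.21%) lower, with a median of -0.14. The pan-neuronal RNA-binding gene elavl3 had 9143, 7177 and 4404 normalized counts in DMSO and 4830.1, 4853 and 5214 at 10 µg/L (log2 fold change -0.41, adjusted p = 0.499). The vesicle fusion gene snap25a had 11059, 10380.3 and 8329 and 8313, 9644 and 9211 (log2 fold change -0.12, adjusted p = 0.805). DMSO replicates 1 and 2 were the highest libraries and DMSO replicate 3 the lowest for elavl3, elavl4 and gap43, the last of which had 3665, 3191 and 1419.7 in DMSO and 1811, 1949 and 2067 after exposure. Summed over the list, normalized counts were 122525, 116497 and 70592 in DMSO replicates 1 to 3 and 90726, 94095 and 89424 at 10 µg/L. Without DMSO replicate 3 the median of the neuron list was -0.35, with 11 genes lower and 3 higher at an adjusted p under 0.05 in limma (4.37% lower and 6.78% higher among all genes). At an unadjusted p under 0.05 in limma, the same fit called 16 genes of the list lower and 3 higher. It called 2361 of all 19610 genes tested lower and 2908 higher. With DMSO replicate 3 as the only control the median of the neuron list was 0.43. The part of the neuron share in the results on adhesion, guidance and synapse genes was not tested. Those called higher in the neuron list were mapta (log2 fold change 2.08), a tau gene, sypa (log2 fold change 1.55) and inab (log2 fold change 0.85). For mapta the controls had 70.2, 112 and 349.6 and the exposed libraries 489, 809 and 540.4.

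Glial and eye markers were called at shares near or below those of all genes, 7.91% higher and 5.21% lower. Of 18 astroglial markers none was called (median 0.01), and gfap had 3603, 3514 and 3696 normalized counts in DMSO and 3863, 3689 and 3769.6 after exposure. Of 14 oligodendrocyte markers mag was higher (log2 fold change 1.93) and mbpa, a myelin basic protein gene, lower at 3682, 2707 and 3183 in DMSO and 2509, 2316 and 2531 at 10 µg/L (log2 fold change -0.37, SE 0.16, adjusted p = 0.361). Of 58 photoreceptor genes 5 (8.62%) were called higher, among them the cone kinase gene grk7a (log2 fold change 0.59) and the opsin gene opn1mw2 (log2 fold change 0.93). The 3 (5.17%) called lower were the phototransduction genes gngt2a (log2 fold change -0.86), pde6ha (log2 fold change -0.51) and gngt1 (log2 fold change -0.52). Rhodopsin, rho, had 20315, 13767 and 7386 in DMSO and 14800.1, 14524 and 12801 after exposure, with DMSO replicate 3 lowest. For the 47 lens genes 3 were called higher, with a median of 0.20 that became 0.57 with DMSO replicate 3 as the only control and -0.01 without it. Photoreceptor genes called higher numbered 10 with quantile normalization, 3 without 10 µg/L replicate 1, 2 without 10 µg/L replicate 2 and 20 with DMSO replicate 3 as the only control, and those called lower 1 without DMSO replicate 1 or DMSO replicate 2 or 10 µg/L replicate 1 or 10 µg/L replicate 3 or with DMSO replicate 3 as the only control and 11 without DMSO replicate 3. Lens genes called higher numbered 8 with quantile normalization, 15 without DMSO replicate 1, 1 without DMSO replicate 2 or 10 µg/L replicate 2, 0 without 10 µg/L replicate 1, 10 without 10 µg/L replicate 3 and 18 with DMSO replicate 3 as the only control.

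Cytosolic ribosomal protein genes were the group most often called lower. Of 99 genes, 39 (39.4%) were called lower and 1 higher, 89 were negative, and the median log2 fold change was -0.49. The gene called higher was rps6kl1, which shares the letters of the symbol but is a kinase-like gene. Without such symbols, a choice made after the values were seen, 38 of 85 genes were lower and 0 higher, with a median of -0.52. For rpl38, a large subunit protein, the controls had 13890.3, 10868 and 10155 normalized counts and the exposed libraries 7861, 7609 and 6906 (log2 fold change -0.63, SE 0.18, adjusted p = 0.242). For rpl36 values were 22669, 19146 and 19821 in DMSO and 13836, 13973 and 13503 at 10 µg/L (log2 fold change -0.57, SE 0.18, adjusted p = 0.264). For rpl30 they were 43642, 36579 and 33206 and 24627, 24293 and 22234 (log2 fold change -0.66, SE 0.22, adjusted p = 0.271). All exposed libraries of these 3 genes were below all controls, and DMSO replicate 1 was the highest.

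The size of the ribosomal difference varied with the control and the scaling. The list's level, as the median over its genes of the log2 value minus the mean of the 6 libraries, was 0.59, 0.14 and 0.01 in DMSO replicates 1 to 3 and -0.13, -0.31 and -0.32 at 10 µg/L. DMSO replicate 1, the control with the fewest reads, stood above the rest, and DMSO replicate 3 lay above each exposed library. The median log2 fold change was -0.60 without DMSO replicate 3, -0.24 with it as the only control, -0.31 without DMSO replicate 1 and -0.16 with quantile normalization. Ribosomal genes called lower numbered 21 with quantile normalization, 18 without DMSO replicate 1, 24 without DMSO replicate 2, 69 without DMSO replicate 3, 18 without 10 µg/L replicate 1, 5 without 10 µg/L replicate 2, 3 without 10 µg/L replicate 3, 62 in edgeR and 73 in DESeq2, and 7 with DMSO replicate 3 as the only control (3.88% of all genes). Among all 19610 genes tested, 696 were called lower without DMSO replicate 1, 610 without DMSO replicate 2 and 2361 without DMSO replicate 3. The numbers were 665 without 10 µg/L replicate 1, 501 without 10 µg/L replicate 2 and 615 without 10 µg/L replicate 3. Without 10 µg/L replicate 3 the ribosomal share called lower was therefore near that of all genes. With any other single library left out it was above that of all genes. The unique read counts of ribosomal protein genes are uncertain where near-identical copies of them exist.

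Genes that act with the ribosome followed in part. Of 86 translation factor genes 14 (16.3%) were called lower and 1 higher, with a median of -0.14. The initiation factor subunit gene eif3k had 4896, 4341 and 3634 normalized counts in DMSO and 2718, 2509 and 2942 after exposure (log2 fold change -0.65, SE 0.16, adjusted p = 0.242). The exchange factor subunit gene eif2b4 had 2439, 2579 and 1598 and 1508, 1205 and 1255 (log2 fold change -0.71, SE 0.20, adjusted p = 0.242). The groups of both were separate. The gene called higher was eif4g2a (log2 fold change 0.38). With DMSO replicate 3 as the only control the median of the list was 0.01 and 4 genes were called lower. Translation factor genes called lower numbered 7 in limma without a trend, 8 without DMSO replicate 1, 9 without DMSO replicate 2, 24 without DMSO replicate 3, 5 without 10 µg/L replicate 2 and 6 without 10 µg/L replicate 3. Of 74 mitochondrial ribosomal protein genes 4 were called lower, near the share of all genes, although 70 were negative (median -0.19, or -0.01 against DMSO replicate 3 alone). That count was 1 without DMSO replicate 1 or 10 µg/L replicate 3, 20 without DMSO replicate 3 and 0 without 10 µg/L replicate 2 or with DMSO replicate 3 as the only control.

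Respiration and protein turnover gave the same direction. Of 118 nuclear genes of oxidative phosphorylation 23 (19.5%) were called lower and 0 higher, with a median of -0.24. Beside cox17, the complex I subunit gene ndufs4 had 944, 672.4 and 681 normalized counts in DMSO and 529, 502 and 537 at 10 µg/L (log2 fold change -0.53, SE 0.17, adjusted p = 0.264). The complex III assembly gene uqcc3 had 395, 498 and 439.8 and 323, 222 and 304 (log2 fold change -0.66, SE 0.19, adjusted p = 0.242). Of the 13 genes of the mitochondrial genome none was called (median -0.14). Oxidative phosphorylation genes called lower numbered 13 in limma without a trend, 11 without DMSO replicate 1, 46 without DMSO replicate 3, 8 without 10 µg/L replicate 2 and 8 without 10 µg/L replicate 3, and 7 with DMSO replicate 3 as the only control (median -0.09).

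Of 54 proteasome genes 10 (18.5%) were called lower and 0 higher, with a median of -0.26. The catalytic subunit gene psmb6 had 2649.8, 1952 and 1899 normalized counts in DMSO and 1634, 1284 and 1305 after exposure (log2 fold change -0.61, SE 0.18, adjusted p = 0.242). It was highest in DMSO replicate 1, and its groups did not overlap. Proteasome genes called lower numbered 5 in limma without a trend, 3 without DMSO replicate 1, 17 without DMSO replicate 3, 21 without 10 µg/L replicate 1, 4 without 10 µg/L replicate 2 and 4 without 10 µg/L replicate 3, and 6 against DMSO replicate 3 alone (median -0.19). Of 103 chaperone genes 16 were called lower and 3 higher, with a median of -0.14. The collagen chaperone gene serpinh1b had 579.6, 495 and 367 in DMSO and 293, 236 and 289 at 10 µg/L (log2 fold change -0.80, SE 0.20, adjusted p = 0.242). The heat shock gene hsp70.2 had 121, 182 and 139 and 79.8, 69.2 and 80.7 (log2 fold change -0.92, SE 0.23, adjusted p = 0.242). Both were lower in all exposed libraries, while calnexin, canx, was higher (log2 fold change 0.36). Chaperone genes called lower numbered 10 in limma without a trend, 9 without DMSO replicate 1, 9 without DMSO replicate 2, 8 without 10 µg/L replicate 2 and 7 without 10 µg/L replicate 3, and 4 with DMSO replicate 3 as the only control. Those called higher numbered 1 without DMSO replicate 1 or 10 µg/L replicate 2, 9 without DMSO replicate 3, 0 without 10 µg/L replicate 1 and 6 with DMSO replicate 3 as the only control.

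**Figure D5:**
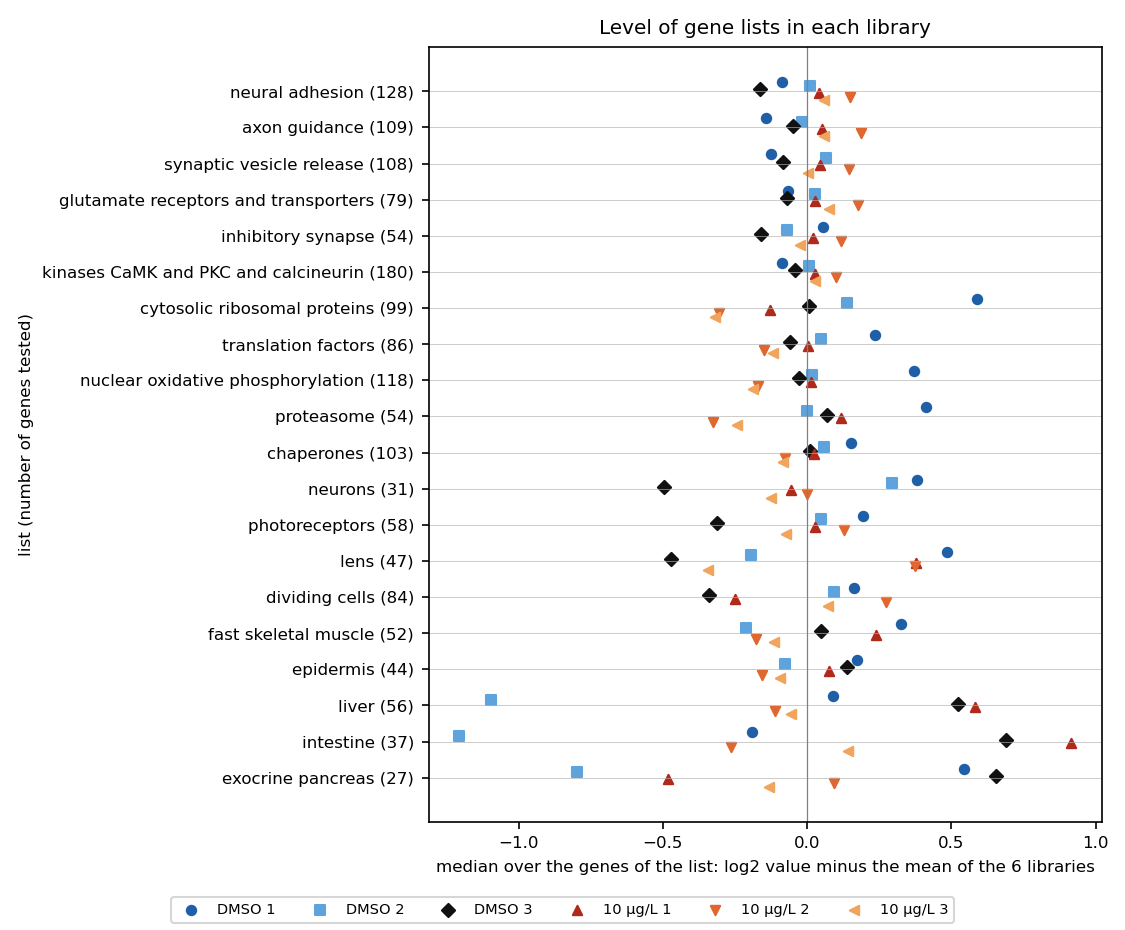
Level of each list in each library (horizontal), as the median over its genes of the log2 value minus the mean of the 6 libraries, with 1 symbol for each library and the number of genes in brackets. Neuronal function lists differ little between libraries, ribosomal proteins lie at 0.59, 0.14 and 0.01 in the DMSO libraries and -0.13, -0.31 and -0.32 in the exposed ones, and liver, intestine and pancreas spread most among the controls.

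Digestive organs differed more between control beakers than between the groups. The liver list was at 0.09, -1.10 and 0.52 in DMSO replicates 1 to 3 and at 0.58, -0.11 and -0.06 at 10 µg/L, on the same relative log2 scale, and the intestine list at -0.19, -1.21 and 0.69 and 0.92, -0.26 and 0.14. DMSO replicate 2 was the lowest library for both. Of 56 liver genes 1 was called higher and 1 lower, and of 37 intestine genes 1 and 0. The liver fatty acid binding protein gene fabp10a had 20736, 6346 and 12686 normalized counts in DMSO and 12777, 9304 and 10103 after exposure, and the intestinal fabp2 6719.9, 2720.1 and 10613 and 11851, 5555 and 7338. The median log2 fold change of the liver list was 0.35, but -0.17 without DMSO replicate 2 and -0.45 with DMSO replicate 3 as the only control, and that of the intestine list was 0.53, 0.08 and -0.35. Without DMSO replicate 3 these medians were 0.71 and 1.09, with 21 liver and 23 intestine genes called higher. With it as the only control 14 liver and 5 intestine genes were called lower. The exocrine pancreas list, with 23 of 27 genes negative, was at 0.54, -0.80 and 0.66 and -0.48, 0.09 and -0.13. Trypsinogen, prss1, had 29619, 11525 and 22542 in DMSO and 12636, 18327 and 15073 at 10 µg/L. With all libraries CELA1 (1 of many), an elastase gene, was the gene called in that list (log2 fold change -1.503). Pancreas genes called lower numbered 19 without DMSO replicate 2 (median -0.83) and 18 with DMSO replicate 3 as the only control (median -0.80).

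Lipid genes were called higher at a share close to that of all genes. Of 130 lipid metabolism genes 12 (9.23%) were called higher and 3 lower, with a median of 0.18 that was -0.08 against DMSO replicate 3 alone. The fatty acid oxidation gene cpt1ab, whose relatives are targets of the receptor PPAR alpha in mammals, was not called, with 212, 217 and 285 normalized counts in DMSO and 271, 289 and 289 at 10 µg/L. The receptor gene pparaa had 73.5, 114 and 172 and 202, 152 and 203 (log2 fold change 0.70, SE 0.30, adjusted p = 0.362). In pparaa the highest control, DMSO replicate 3, lay within the exposed range. The sterol synthesis gene cyp51 was higher at 109, 102 and 189 in DMSO and 279, 192 and 226 after exposure (log2 fold change 0.83, SE 0.26, adjusted p = 0.264). The fatty acid binding protein genes called lower were fabp7b (log2 fold change -0.78) and fabp10b (log2 fold change -1.42). Lipid genes called higher numbered 6 without DMSO replicate 1 or with DMSO replicate 3 as the only control, 7 without DMSO replicate 2 or 10 µg/L replicate 1 and 41 without DMSO replicate 3, and those called lower 6 without DMSO replicate 1, 8 without DMSO replicate 3 and 10 with DMSO replicate 3 as the only control. The sums over the liver list were 136866, 53907 and 155554 in DMSO and 164308, 106446 and 115694 after exposure. The part of the liver in the lipid values was not tested.

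Sphingolipid genes called higher were 5 of 49 (10.2%), with 0 lower, beside 7.91% and 5.21% of all genes. The glucosylceramide synthase gene ugcg had 26.1, 50.7 and 42.5 normalized counts in DMSO and 116, 107 and 87.8 at 10 µg/L (log2 fold change 1.40, SE 0.30, adjusted p = 0.224). The ceramide synthase gene cers4a had 96.3, 70.2 and 107 and 162, 193 and 168 (log2 fold change 0.94, SE 0.23, adjusted p = 0.242). These enzymes stood apart from all 3 controls, while the list's median of 0.21 became -0.08 against DMSO replicate 3 alone. Without DMSO replicate 3, 14 genes of the list were called higher, in a fit that called 2908 of all 19610 genes tested higher. Cytochrome P450 genes had a median of 0.30 that was -0.37 against DMSO replicate 3 alone. Of 46 such genes 3 (6.52%) were called higher and 1 (2.17%) lower, below the shares of all genes. The higher count was 17 in the same fit without DMSO replicate 3 (median 0.63). It was 0 without DMSO replicate 2 (median -0.03), without 10 µg/L replicate 1 or with a minimum mean of 50. The dioxin-responsive cyp1a had 305, 159.1 and 554 in DMSO and 452, 230.1 and 351 after exposure and was not called.

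Of 54 genes of a growth and thyroid hormone list, which also held stress hormone genes, 5 (9.26%) were called lower and 1 (1.85%) higher. The shares of all genes were 5.21% and 7.91%. The lower count was 8 with quantile normalization and 10 without DMSO replicate 3, and the higher count 3 without DMSO replicate 3. Among those called lower were the glucocorticoid-related fkbp5 and hsd11b2. The glucocorticoid-induced gene fkbp5 had 1619.6, 3531 and 3511 normalized counts in DMSO and 1044, 851 and 1874 at 10 µg/L (log2 fold change -1.20, SE 0.34, adjusted p = 0.242). The cortisol-inactivating enzyme gene hsd11b2 had 175, 323 and 291 and 98.9, 117 and 177 (log2 fold change -0.99, SE 0.29, adjusted p = 0.245). In both genes DMSO replicate 1 was the lowest control and 10 µg/L replicate 3 the highest exposed library, and through these libraries the groups of both genes overlapped.

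Of 41 clock genes 9 (22%) were called higher and 4 lower, and leaving out a library, another scaling or another test kept the higher count within 1.5 times this number. The lower count was 2 without DMSO replicate 2 and 1 without 10 µg/L replicate 2. The clock activator gene clockb had 122, 133 and 213 in DMSO and 312, 352 and 311 after exposure (log2 fold change 1.10, SE 0.23, adjusted p = 0.224). Its partner arntl1b had 299, 218 and 225 and 179, 172 and 164 (log2 fold change -0.51, SE 0.19, adjusted p = 0.311), in the opposite direction. The clock output gene dbpa had 442, 522 and 539 and 784, 921 and 719.7 (log2 fold change 0.69, SE 0.16, adjusted p = 0.233), the repressor gene cry2 891, 1026 and 1074 and 1523, 1509 and 1338 (log2 fold change 0.55, SE 0.14, adjusted p = 0.242), and per1b a log2 fold change of 0.40. The light-induced per2 was not called, at 1969, 2762 and 2325 and 2582, 2588 and 2853.

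Nuclear receptors and their coregulators were called higher for 11 of 77 genes (14.3%, beside 7.91% of all genes) and lower for 4 (5.19%, beside 5.21%). The receptor gene nr4a2a, needed for dopaminergic neurons, had 27.8, 33.5 and 17.9 normalized counts in DMSO and 69.7, 78.0 and 75.3 at 10 µg/L (log2 fold change 1.502, SE 0.32, adjusted p = 0.224). DMSO replicate 3 was the lowest library. The retinoic acid receptor gene rarab was higher by 0.51 on the log2 scale, and the vitamin D receptor gene vdrb had 2878, 2337 and 901 in DMSO and 1136, 839 and 902 after exposure (log2 fold change -0.94, SE 0.36, adjusted p = 0.325). Here DMSO replicate 3 lay within the exposed range. The thyroid hormone receptor gene thrb had 271, 336 and 425 and 175, 253 and 293 and was not called (log2 fold change -0.52, adjusted p = 0.384). Nuclear receptor genes called higher numbered 5 in limma without a trend, 7 without DMSO replicate 1, 17 without DMSO replicate 3, 4 without 10 µg/L replicate 2, 6 without 10 µg/L replicate 3 and 7 in edgeR, and those called lower 10 without DMSO replicate 3, 2 without 10 µg/L replicate 2 and 7 with DMSO replicate 3 as the only control.

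Interferon response genes were called higher for 10 of 59 members (16.9%) and lower for 1. Beside isg15, the viral RNA sensor gene dhx58 had 11.4, 20.3 and 28.1 normalized counts in DMSO and 52.5, 49.7 and 52.9 at 10 µg/L (log2 fold change 1.42, SE 0.39, adjusted p = 0.242). The transcription factor gene stat1a went the other way, at 2509, 1984 and 1549 and 1478, 1297 and 1381 (log2 fold change -0.51, SE 0.18, adjusted p = 0.303). Isg15 and dhx58 stood apart from all controls. With a minimum mean of 50 or with DMSO replicate 3 as the only control the higher count was 4. Of 32 leukocyte markers 2 (6.25%) were called higher and 2 (6.25%) lower, near the 7.91% and 5.21% of all genes. The higher ones were the macrophage genes csf1ra (log2 fold change 0.83) and mpeg1.2 (log2 fold change 0.77). The higher leukocyte count was 1 without DMSO replicate 1, 5 without DMSO replicate 3 and 0 without 10 µg/L replicate 1 or 10 µg/L replicate 2.

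With all 6 libraries, connective tissue genes were called higher at shares above that of all genes (7.91%), though in small numbers. Of 33 fibroblast and fin genes 5 (15.2%) were called higher and 0 lower, and among collagen and matrix genes 15 (12.1%) were higher and 3 lower. The type I collagen gene col1a2 had 6421, 6226 and 5999 normalized counts in DMSO and 8096, 8178 and 7775 at 10 µg/L (log2 fold change 0.37, SE 0.15, adjusted p = 0.342). The cartilage regulator gene sox9a had 26.1, 30.4 and 93.6 and 151, 199 and 137 (log2 fold change 1.90, SE 0.43, adjusted p = 0.224), and its paralog sox9b a log2 fold change of 0.44. All exposed libraries of these genes were above the controls. Of 44 epidermal genes 3 (6.82%, beside 5.21% of all genes) were called lower and 0 higher. The keratin gene cyt1 had 62603, 45038 and 40537 in DMSO and 35357, 30294 and 32173 after exposure (log2 fold change -0.58, SE 0.25, adjusted p = 0.37), whereas krt4 had 103500.0, 78106 and 116922 and 125150.0, 106980.0 and 107445 and was not called. Matrix genes called higher numbered 8 in edgeR, 7 without DMSO replicate 1 or DMSO replicate 2, 30 without DMSO replicate 3, 9 without 10 µg/L replicate 1, 4 without 10 µg/L replicate 2 or 10 µg/L replicate 3 and 6 with DMSO replicate 3 as the only control. Fibroblast genes called higher numbered 2 without DMSO replicate 2, 11 without DMSO replicate 3, 2 without 10 µg/L replicate 1, 2 without 10 µg/L replicate 2 and 1 without 10 µg/L replicate 3, and epidermal genes called lower 6 without DMSO replicate 1, 1 without 10 µg/L replicate 2 or 10 µg/L replicate 3 and 8 with DMSO replicate 3 as the only control.

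Signalling and growth genes included both beta-catenins. For ctnnb2 the controls had 409.8, 491 and 407 normalized counts and the exposed libraries 852, 697 and 853 (log2 fold change 0.87, SE 0.16, adjusted p = 0.224), and for ctnnb1 1760.0, 2216 and 1771 and 2959, 2812 and 2993 (log2 fold change 0.62, SE 0.15, adjusted p = 0.242). Both genes, which link cadherins to actin and carry Wnt signals, were higher in all exposed libraries. Of 144 Wnt, BMP and Hedgehog genes 15 (10.4%) were called higher and 3 (2.08%) lower, beside 7.91% and 5.21% of all genes. Of 84 genes of dividing cells 7 (8.33%) were called higher, near the share of all genes, and 1 (1.19%) lower. The replication helicase gene mcm5 had 264, 265 and 196 in DMSO and 363, 443 and 369 at 10 µg/L (log2 fold change 0.70, SE 0.18, adjusted p = 0.242). The proliferation markers pcna (2086, 1720.0 and 1222 and 1493, 1887 and 1549) and mki67 (475, 470.4 and 300.3 and 256, 559.6 and 519.8) were not called. Wnt, BMP and Hedgehog genes called lower numbered 1 without DMSO replicate 1 or DMSO replicate 2 or 10 µg/L replicate 2 or with DMSO replicate 3 as the only control and 12 without DMSO replicate 3. The lower count for dividing cells was 9 without DMSO replicate 3, a fit that called 2361 of all 19610 genes tested lower. The higher count for dividing cells was 1 without 10 µg/L replicate 2, and 16 with DMSO replicate 3 as the only control.

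Muscle, heart and blood genes were called at shares near or below those of all genes, 7.91% higher and 5.21% lower. Of 52 fast muscle genes 2 were called higher and 0 lower (median -0.11, and 0.07 with quantile normalization, which called 13 genes higher, against 6 with DMSO replicate 3 as the only control and 0 without 10 µg/L replicate 1). The myosin light chain gene mylpfa had 248758, 175259 and 162756 normalized counts in DMSO and 204155, 147355 and 148904 at 10 µg/L. Of 12 slow muscle genes 1 was higher and 1 lower, of 19 heart genes 0 and 0, and of 21 red blood cell genes 0 and 1.

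By gene symbol, 118 families had at least 15 tested members. Among all genes 7.91% were called higher and 5.21% lower. A family groups symbols by their leading letters alone, and the bcl genes called were bcl9, bcl11aa and bcl2l1. The families with the highest share called higher were, beside the protocadherins, the adam genes (5 of 15), the mapk genes (5 of 19), the gpr genes (11 of 47), the prdm genes (3 of 15), the bcl genes (3 of 16), the dusp genes (4 of 21, with 2 lower) and the stk genes (4 of 23, with 3 lower). With all libraries the median log2 fold changes of adam, mapk, gpr, prdm and bcl were 0.29, 0.40, 0.19, 0.11 and 0.11. With DMSO replicate 3 as the only control they were 0.26, 0.38, 0.10, 0.23 and 0.30. Those of dusp and stk were both -0.01 with all libraries, and -0.06 and 0.04 with that control. Adam genes encode membrane proteases and relatives that shed or bind surface proteins. Of these, adam22, a neuronal binding partner without protease activity, had 122, 88.1 and 208 normalized counts in DMSO and 275, 356 and 234 at 10 µg/L (log2 fold change 1.11, SE 0.30, adjusted p = 0.242). The sheddase gene adam10b had 405, 403 and 539 and 747, 586 and 697 (log2 fold change 0.60, SE 0.17, adjusted p = 0.249). Both were higher in all exposed libraries. The mapk symbols cover MAP kinases and scaffold proteins of the JNK pathway, and mapk8ip2 and mapk8ip1a among those called higher are such scaffold genes. The dusp genes encode phosphatases, many of which switch MAP kinases off, and dusp3a had 57.1, 64.7 and 128 and 174, 285 and 206 (log2 fold change 1.46, SE 0.32, adjusted p = 0.224). The orphan receptor gene gpr52 had a log2 fold change of 1.33.

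The families with the highest share called lower were led by the rpl (19 of 46) and rps (18 of 44) symbols, beside 5.21% of all genes. These are mostly ribosomal genes but take in others such as the kinase-like rps6kl1. The other families were ndufa (4 of 16) of complex I, and gtf (5 of 23) and med (5 of 28) of transcription by RNA polymerase II and III. Also among them were eif (13 of 63) of translation, itga (3 of 15) of integrins and dnajc (6 of 32) of co-chaperones. With all libraries the median log2 fold changes of rpl, rps, ndufa, gtf, med and eif were -0.51, -0.50, -0.35, -0.22, -0.15 and -0.15. With DMSO replicate 3 as the only control they were -0.27, -0.25, -0.04, -0.05, 0.09 and 0.01. Those of itga and dnajc were -0.13 and -0.12 with all libraries, and -0.30 and -0.16 with that control. The transcription and repair factor gene gtf2h5 had 149, 159.9 and 143 normalized counts in DMSO and 69.7, 110.2 and 67.2 at 10 µg/L (log2 fold change -0.90, SE 0.24, adjusted p = 0.242). The mediator gene med19a had 944, 757 and 472 and 409.9, 466 and 449 (log2 fold change -0.66, SE 0.23, adjusted p = 0.302). For gtf2h5 all controls were high, while for med19a DMSO replicate 3 lay close to the exposed libraries. The co-chaperone gene dnajc4 had 713, 664 and 469.6 in DMSO and 303, 371 and 429 after exposure (log2 fold change -0.73, SE 0.20, adjusted p = 0.242). Integrin alpha genes were mixed, with itga6b (log2 fold change -0.49) lower and itga3b (log2 fold change 1.01) higher.

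Gene by gene, DMSO replicate 3 stood nearer to the exposed libraries than to its own group. Its value lay within the range of the 3 exposed libraries for 8177 genes (41.7%), against 5468 for DMSO replicate 1 and 6383 for DMSO replicate 2. It was nearer to the mean of the exposed libraries than to that of the other controls for 64.9% of genes, against 41.2% for DMSO replicate 1 and 42.8% for DMSO replicate 2. DMSO replicates 1 and 2 lay both above or both below all exposed libraries for 8574 genes (43.7%). In 5044 of these DMSO replicate 3 was at or past the exposed libraries, in 2074 it lay between, and in 1456 it lay with or beyond the other controls.

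Among the genes called with all 6 libraries the same order held. Of the 1551 called higher, DMSO replicate 3 lay outside DMSO replicates 1 and 2 on the exposed side for 1228, and of the 1021 called lower for 709. Without DMSO replicate 3, 2186 genes had an adjusted p under 0.05 in limma, 1329 higher and 857 lower, and these included 1032 of the genes called higher and 494 of those called lower. With it as the only control 0 genes had an adjusted p under 0.05 in limma, the lowest adjusted value was 0.0947, and 1289 genes were higher and 761 lower at an unadjusted p under 0.05. Only 654 genes were called in the same direction both with all libraries and with DMSO replicate 3 alone, 437 higher and 217 lower. Among the genes described here, klc1a, isg15, l1camb, nr4a2a, ugcg, ctnnb2, rorcb, cox17, rpl36 and fkbp5 had log2 fold changes against DMSO replicate 3 alone of 1.31, 2.24, 1.32, 2.00, 1.26, 0.97, -0.71, -0.64, -0.53 and -1.57. Each kept the direction it had with all libraries. By contrast, for baz1a, a chromatin remodelling gene, the controls had 968, 981 and 391 normalized counts and the exposed libraries 371, 441 and 371 (log2 fold change -0.87, SE 0.31, adjusted p = 0.305), so that its call rested on DMSO replicates 1 and 2.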

How the data were processed

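RNA from whole zebrafish larvae was analyzed, 3 libraries at 10 µg/L PFNA and 3 DMSO libraries, grouped and numbered by the sample titles. The authors trimmed reads with Trimmomatic 0.36, mapped them to GRCz10 with STAR 2.5.2b and counted unique exon reads with featureCounts (Subread 1.5.2). By the study's methods, reads of strand-specific libraries were counted by strand. The authors deposited a signal for each library, its read count per gene over its DESeq2 size factor. All values (100%) were whole multiples of 1 read (tolerance 0.1), and these reads entered edgeR and DESeq2. Columns with the authors' log2 fold changes and p-values were deposited too and were not used. Sequencing depth was 14493071 to 23963715 recovered reads on genes per library, and near the minimum of 10 normalized counts the reads limit precision beside the 3 replicates.

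Normalized counts plus 1 were put on the log2 scale and tested with limma 3.58.1 in R 4.3.3 with a trend, two-sided, with Benjamini-Hochberg adjustment over 19610 genes. A single gene tested alone by an exact permutation of 3 against 3 libraries could not reach a p below 0.1. Alternatives were a pseudocount of 0.5 or 5, a minimum mean of 1, 50 or none, quantile or TMM scaling, limma with robust moderation or with no trend, a block for the replicate number, edgeR 4.0.16, DESeq2 1.42.0, each library left out, and DMSO replicate 3 as the only control. The tests were tested on simulated data. Gene lists are patterns of gene symbols, and families are symbols with the same leading letters. Members and lists were chosen with earlier results of these data known. Named genes were the 10 with the smallest p in each direction, the 5 with the largest and the 5 with the lowest called log2 fold change and no overlap, up to 3 called in each direction in a list described, and defining markers. Family members were named after their values were seen, and so was the narrower ribosomal list. Names came from the table for 19065 genes and from a reference table for 16, and 650 had none. Protein lengths and sequences were not used here. Tables were made with pandas 2.3.3 and numpy 2.4.6 in Python 3.11.15 and figures with matplotlib 3.10.9.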

Additional observations from a re-analysis of the deposited data

How the results depend on the processing

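With 1 library left out, the number of genes at an unadjusted p under 0.05 in limma ranged from 1301 (without 10 µg/L replicate 2) to 5269 (without DMSO replicate 3), against 2572 with all libraries. Genes higher ranged from 800 to 2908 and genes lower from 501 to 2361, each lowest without 10 µg/L replicate 2 and highest without DMSO replicate 3. Genes lower also numbered 610 without DMSO replicate 2, 665 without 10 µg/L replicate 1 and 615 without 10 µg/L replicate 3. Genes at an adjusted p under 0.05 ranged from 0 to 2186, above 0 only without DMSO replicate 3, and DESeq2 with all libraries gave 229. Other settings kept the counts within 1.5 times, but the split of higher and lower genes moved to 1261 and 1244 in edgeR, 1307 and 1111 in DESeq2 and 1494 and 1270 with quantile normalization, from 1551 and 1021. With DMSO replicate 3 as the only control some log2 fold changes changed sign. Only genes chosen for naming and called in either fit are listed. They were tm4sf18 to -0.0916, tyr to -0.0535, rps6kl1 to -0.0674, insrb to -0.19 and baz1a to 0.00537. The others were vdrb to 0.0779, gap43 to 0.45, pcna to 0.42 and cyp1a to -0.74. Genes called in neither fit could also change sign. The cause was not tested. Of 266 genes chosen for naming, 246 were called. Under each alternative, genes were counted that lost their call, or changed sign while called in either fit. These numbered 12 without DMSO replicate 3, 78 without 10 µg/L replicate 2 and 0 with a pseudocount of 5. They were most numerous with DMSO replicate 3 as the only control. For 100 of the 266 genes the call and direction held under each of the 19 alternatives run on them.

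A fit with a replicate block called 2908 genes at an unadjusted p under 0.05 in limma, 1701 higher and 1207 lower, and 0 at an adjusted p under 0.05. Deviations of libraries with the same number correlated at 0.166, 0.0763 and -0.0529 over genes, which are not independent replicates, so the numbers were not treated as pairs. DMSO replicate 1 correlated best with 10 µg/L replicate 1, DMSO replicate 2 with replicate 3 and DMSO replicate 3 with replicate 2. With a minimum mean of 50, 14625 genes were tested and 1982 called. Of the 3922 genes with the lowest mean normalized counts 288 were called higher and 89 lower, against 496 and 142 of the next 3922, and the part of depth in this was not tested.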

Other observations

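Gene regulation lists were called higher at shares below that of all genes (7.91%), and lower at shares somewhat above theirs (5.21%). Of 186 chromatin regulator genes 10 (5.38%) were called higher and 12 (6.45%) lower at 10 µg/L PFNA. The histone deacetylase gene hdac9b had 149, 165 and 179 normalized counts in DMSO replicates 1 to 3 and 334, 356 and 264 at 10 µg/L (log2 fold change 0.94, SE 0.19, adjusted p = 0.224), where SE is the standard error and the adjusted p is that of limma. The methyl-CpG binding gene mbd5 had 44.1, 75.7 and 105 and 188, 242 and 189 (log2 fold change 1.52, SE 0.31, adjusted p = 0.224). The Polycomb gene cbx7a was lower (log2 fold change -0.49). Of 173 splicing and RNA-binding genes 9 (5.20%) were called higher and 14 (8.09%) lower. The neuronal splicing factor gene nova1 had 94.7, 85.0 and 191 in DMSO and 228, 408 and 293 after exposure (log2 fold change 1.37, SE 0.32, adjusted p = 0.242), with DMSO replicate 3 above the other controls. The splicing factor gene rbm25a had 467, 621 and 342 and 189, 197 and 295 (log2 fold change -1.06, SE 0.25, adjusted p = 0.242). Chromatin genes called lower numbered 2 without DMSO replicate 1 or 10 µg/L replicate 1 or 10 µg/L replicate 2, 1 without DMSO replicate 2 or with DMSO replicate 3 as the only control, 33 without DMSO replicate 3 and 4 without 10 µg/L replicate 3, and those called higher 6 without 10 µg/L replicate 2 and 18 with DMSO replicate 3 as the only control. Splicing genes called lower numbered 6 without DMSO replicate 2, 47 without DMSO replicate 3, 7 without 10 µg/L replicate 1 and 9 without 10 µg/L replicate 3 or with DMSO replicate 3 as the only control, and those called higher 5 without 10 µg/L replicate 1, 4 without 10 µg/L replicate 2 and 22 with DMSO replicate 3 as the only control. The medians of the lists without DMSO replicate 3 were -0.05 and -0.22.

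Of 343 ubiquitin ligase and protease genes 36 (10.5%) were called higher and 8 lower, beside 7.91% and 5.21% of all genes. Those called higher numbered 22 without DMSO replicate 1 or 10 µg/L replicate 3, 23 without DMSO replicate 2, 64 without DMSO replicate 3, 17 without 10 µg/L replicate 2 and 16 with DMSO replicate 3 as the only control, and those called lower 26 without DMSO replicate 3, 4 without 10 µg/L replicate 2 and 5 without 10 µg/L replicate 3. The brain-enriched ligase gene trim3a had 47.3, 103 and 183 normalized counts in DMSO and 294, 336 and 302 at 10 µg/L (log2 fold change 1.68, SE 0.39, adjusted p = 0.242). The muscle ligase gene trim63b, which marks muscle protein breakdown in mammals, had 707, 1004 and 1049.7 and 563, 484 and 689 (log2 fold change -0.66, SE 0.20, adjusted p = 0.259). Among immediate early genes, 6 of 48 (12.5%) were called higher and 4 (8.33%) lower. The higher count was 1 without DMSO replicate 1, 2 without 10 µg/L replicate 2 and 3 with DMSO replicate 3 as the only control, and the lower count 9 without DMSO replicate 1, 1 without DMSO replicate 2 or 10 µg/L replicate 1, 2 without 10 µg/L replicate 2 and 13 with DMSO replicate 3 as the only control. The gene jund had 744, 741 and 611 in DMSO and 479, 486 and 486 after exposure (log2 fold change -0.53, SE 0.15, adjusted p = 0.242), with all exposed libraries below all controls. Homeobox and patterning genes were called higher for 15 of 183 (8.20%), near the share of all genes, and lower for 6 (3.28%). The higher count was 8 without 10 µg/L replicate 2 and 38 with DMSO replicate 3 as the only control, and the lower count 2 without DMSO replicate 2 or 10 µg/L replicate 3 or with DMSO replicate 3 as the only control, 22 without DMSO replicate 3 and 3 without 10 µg/L replicate 1. The forebrain gene lhx2b had 98.0, 109 and 152 and 209, 336 and 252 (log2 fold change 1.14, SE 0.24, adjusted p = 0.224), and the thyroid and forebrain gene nkx2.4a 124.1, 110.0 and 85.1 and 53.5, 54.6 and 53.8 (log2 fold change -0.95, SE 0.24, adjusted p = 0.242). Among antioxidant and xenobiotic genes 3 were called higher and 6 lower, with the heme oxygenase gene hmox2a at 712, 776 and 803 in DMSO and 513, 498 and 544 at 10 µg/L (log2 fold change -0.56, SE 0.14, adjusted p = 0.242). Antioxidant and xenobiotic genes called higher numbered 21 without DMSO replicate 3, beside 2908 of all 19610 genes tested. Without 10 µg/L replicate 3 they numbered 1, beside 1130. Those called lower numbered 9 without DMSO replicate 3, beside 2361. They numbered 3 without 10 µg/L replicate 2 or 10 µg/L replicate 3, beside 501 and 615. The median of the list was -0.01 with all libraries and -0.28 with DMSO replicate 3 as the only control.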
